A study of Mus musculus with 2 samples.

Results

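Forkhead (Fox) factors are transcription factors that bind DNA through a winged-helix domain, and their genes are named by subclass letter and number. They were taken as every non-control microarray probe whose gene name is Fox, a letter from a to s and a number. The rule found 62 probes for 44 genes in 19 subclasses, of 56605 probes for 32946 gene names on the array. In the embryo FoxA factors open chromatin in endoderm and floor plate, FoxD3 acts in pluripotent cells and neural crest, FoxH1 carries Nodal signals to its targets and FoxJ1 switches on the genes of motile cilia. FoxM1 drives mitotic genes in dividing cells, and FoxO proteins leave the nucleus when insulin or growth factor signals activate AKT.

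The groups were KO-Linc1548 cells and WT cells, 1 array each, both at day 5 of neural differentiation. Linc1548 is a long intergenic non-coding RNA, and the comparison asks what its knockout does to the step from epiblast-like cells to neural progenitors. Both groups were the mouse embryonic stem cell line 46C, in which GFP reports on the Sox1 gene, and both grew as floating aggregates in medium with serum replacement. The labels do not say how the knockout was made or whether it is 1 clone, and the level of Linc1548 itself was not read here, so the labels were not checked against it.

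Values are spot intensities of Cy3-labelled RNA, scaled so that the 75th percentile of all probes was the same on both arrays (652 on the KO-Linc1548 array and 864 on the WT array before scaling, 751 after). Both arrays lay on 1 slide and were read in 1 scan, while array position and culture coincided with the group and cannot be told apart from it. A probe counts as measured when it lay well above background on both arrays by the scanner software's own call, and a difference is the log2 signal of KO-Linc1548 minus that of WT, with ± the spot error the software attaches to it. That error covers the reading of spots only and is modelled by the software, with a set multiplicative error of 0.1 per the file headers. For forkhead genes with 1 measured probe it was 0.20 to 0.41 on the log2 scale (median 0.21). It is not a measured spread, since probes in several spots had a pooled SD of 0.07 (KO-Linc1548) and 0.06 (WT). With 1 array per group there is no replicate check, no difference was tested, and a 2-fold limit marks size only. A probe's signal depends on its sequence as well as on the RNA, so differences are taken between arrays within a probe. Summed signals and words such as bright or dim describe signals and do not rank RNA levels of genes.

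The state of the cultures stood apart as follows. All 8 markers of stem cells and epiblast were measured, 7 were higher by 2-fold or more in KO-Linc1548 cells, and the signals of their brightest probes summed to 464169 in KO-Linc1548 cells against 92698 in WT cells. Dppa5a made up most of both sums, and the other 7 genes summed to 147900 in KO-Linc1548 cells against 29846 in WT cells. All 8 markers of neural progenitors were measured and at least 2-fold lower, with summed signals of 10834 in KO-Linc1548 cells against 100713 in WT cells, and without Hes5 of 9296 in KO-Linc1548 cells against 58457 in WT cells. These are bulk samples, so fewer cells of a type and less RNA per cell cannot be told apart, and the part of the marker shift in the forkhead values below was not tested.

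The forkhead genes measured on both arrays and past the 2-fold limit are each read by a single 60-base probe. The first 30 bases of the probes for 5 of them are shown, 5′ to 3′, since each result below on these genes rests on 1 such oligonucleotide. The first 4 belong to genes lower in KO-Linc1548 cells and the last to Foxd3, the gene with the largest positive difference among those measured on both arrays. The 5 are not the largest differences in order, since Foxd4 (−2.52) differed more than Foxb1 (−1.58) and is not shown. No forkhead probe shares a run of 25 bases with any other probe of the array on either strand (0 of 62). That covers array probes only and says nothing of matches to other transcripts or to repeats.
Foxa1: gcatggtttactccttttctttacagccga
Foxa2: cgggtctgatttaatttatggtttctgcgt
Foxb1: gttctcagcatgcccattttaagacagagt
Foxd2: gacttctccacttagcggagactctgtgaa
Foxd3: ctgtgggggtgggagggacattctttgtac

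Most forkhead genes gave a signal in both cultures. On the KO-Linc1548 array 37 of 44 (84.1%) lay well above background, against 59.6% of all gene names there. On the WT array the count was 38 (86.4%), against 61.5% of all gene names. Well above background in KO-Linc1548 cells only were 2 genes (Foxl1 and Foxr1), where 2.9% of all gene names were, and in WT cells only 3 (Foxc2, Foxf2 and Foxp2), where 4.83% of all gene names were. On neither array were 4 (Foxb2, Foxe1, Foxi2 and Foxn1). Measured on both were 35 genes. Of these, 7 were at least 2-fold lower in KO-Linc1548 cells (among them Foxa1, Foxa2, Foxb1, Foxc1, Foxd2 and Foxd4), which is 20%, where 8.81% of all 18671 genes measured were that much lower. At least 2-fold higher were 3 (Foxd3, Foxi1 and Foxr2), which is 8.57%, where 11.5% of all genes measured were that much higher. The other 25 differed by −0.54 to 0.72 on the log2 scale. The median over the 35 was −0.01, against 0.10 over all genes measured.

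**Figure D1:**
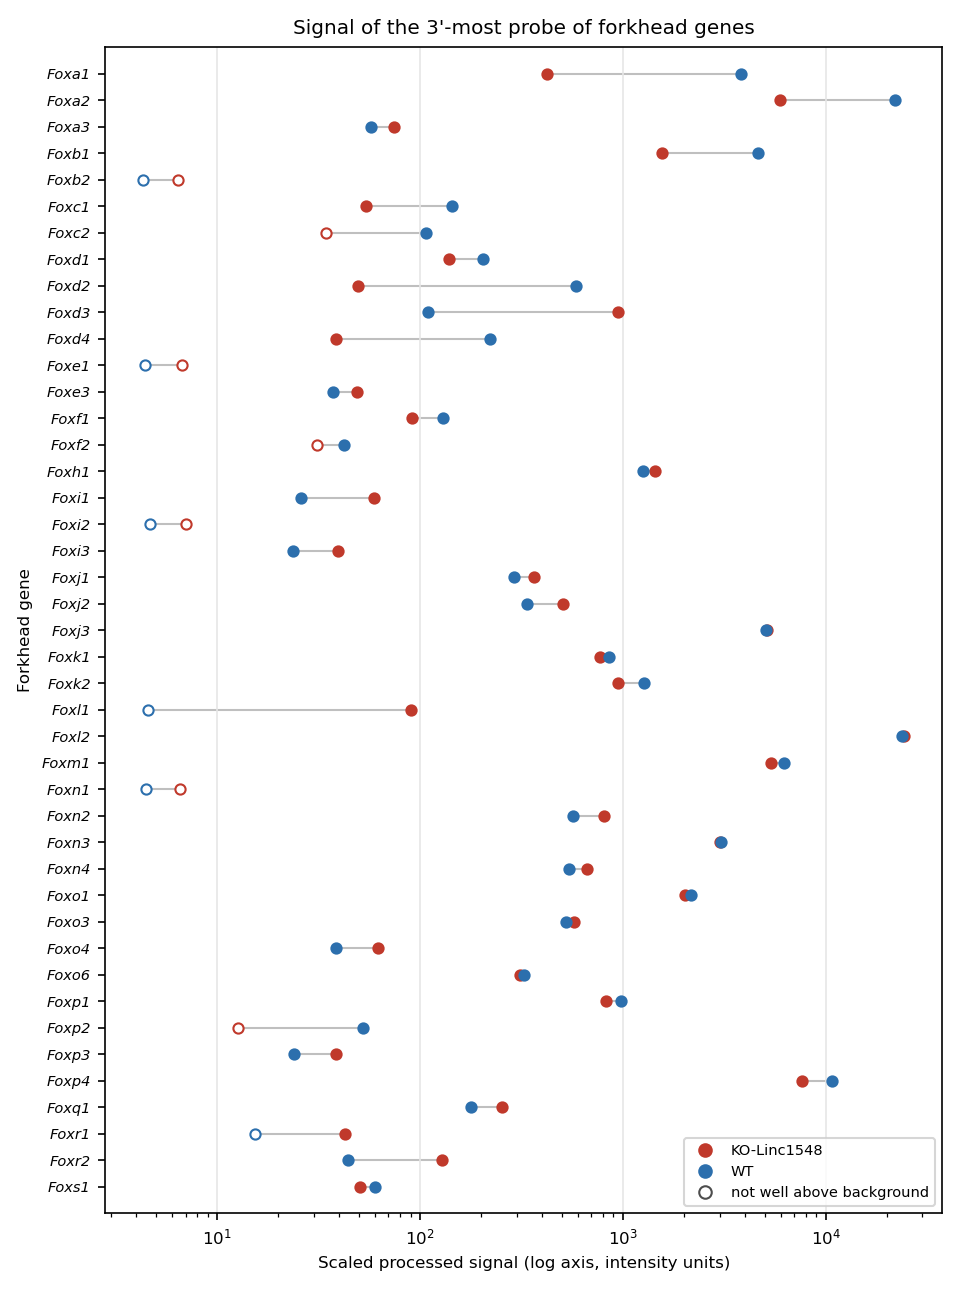
Scaled processed signal (horizontal log axis, intensity units) of the 3′-most probe of 43 forkhead genes, with KO-Linc1548 in red and WT in blue. Open circles are probes not well above background. Foxa1 and Foxd2 lie far to the left in KO-Linc1548 cells, Foxd3 far to the right, and both circles overlap for Foxj3, Foxl2 and Foxn3.

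FoxA genes were lower in 2 of 3 cases. Foxa1, which with Foxa2 specifies floor plate and midbrain dopaminergic progenitors and opens chromatin in endoderm, had a signal of 425 in KO-Linc1548 cells against 3817 in WT cells. The difference of −3.17 ± 0.21 on the log2 scale is 8.99-fold lower, at chr12:58641764-58641823 (minus strand, mm9). Foxa2, the earlier-acting gene of node, floor plate and definitive endoderm, had 5976 in KO-Linc1548 cells against 21970 in WT cells, which is 3.68-fold lower (−1.88 ± 0.20, chr2:147868669-147868728, minus strand). Foxa2 was thus still bright in KO-Linc1548 cells. Foxa3, known from the liver, had 74.4 in KO-Linc1548 cells against 57.3 in WT cells (0.38), a difference of the other sign that became 0.00 with centring on spike-in controls.

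Genes that work beside FoxA in floor plate and endoderm went both ways. Of 18 listed, 16 were measured, 10 lower and 3 higher by 2-fold or more, with a median of −1.61 (−2.03 to −0.53 over the alternative settings). Among the lowest was the homeobox gene Nkx6-1, with 464 in KO-Linc1548 cells against 9670 in WT cells (20.8-fold lower). The highest were Hnf4a, a nuclear receptor of endoderm, with 339 in KO-Linc1548 cells against 111 in WT cells (3.05-fold higher), and Cer1, a secreted inhibitor of Nodal, BMP and Wnt, with 1885 in KO-Linc1548 cells against 751 in WT cells (2.51-fold higher). The floor plate signal Shh, named after its value was seen, had 914 in KO-Linc1548 cells against 8024 in WT cells. Sox17, a marker of definitive endoderm also named after its value was seen, had 552 in both.

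Foxb1, expressed in the early neural tube and later in the mammillary region, had 1555 in KO-Linc1548 cells against 4658 in WT cells. It was 3.00-fold lower (−1.58 ± 0.20, chr9:69605559-69605618, minus strand). Its relative Foxb2 was not well above background on either array.

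Of 16 genes of the early forebrain, 9 lay well above background in KO-Linc1548 cells and 14 in WT cells (59.6% and 61.5% of all gene names did). On both arrays 9 were measured. Of those 9, 4 were lower and 1 higher by 2-fold or more, with a median of −0.71 (−2.44 to −0.27 over the alternative settings). The lowest were Pax6 (−3.58), a gene of forebrain and eye progenitors, and Lhx2, with 194 in KO-Linc1548 cells against 1196 in WT cells (6.16-fold lower). The highest were Otx2, active in epiblast as well as in forebrain and midbrain (4.03-fold higher), and Six6, with 64.3 in KO-Linc1548 cells against 42.6 in WT cells (0.59).

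FoxD genes went both ways. Foxd3, which maintains pluripotent epiblast cells and later marks neural crest, had 949 in KO-Linc1548 cells against 109 in WT cells. It was 8.69-fold higher (3.12 ± 0.21, chr4:99325027-99325086, plus strand), the largest positive difference of any forkhead gene measured on both arrays. Foxd2, known from kidney and facial mesenchyme, had 49.4 in KO-Linc1548 cells against 589 in WT cells, which is 11.9-fold lower (−3.58 ± 0.28, chr4:114578944-114579003, minus strand). Foxd4, which in mouse embryonic stem cells and in frog embryos acts early in neural ectoderm, had 38.6 in KO-Linc1548 cells against 221 in WT cells, which is 5.74-fold lower (−2.52 ± 0.35, chr19:24974179-24974238, minus strand). Foxd1, a gene of ventral retina and kidney stroma, had 140 in KO-Linc1548 cells against 204 in WT cells (−0.54). The KO-Linc1548 signals of Foxd2 and Foxd4 sat not far above 30.5, the dimmest signal still called well above background on that array. With another background correction (normexp) the differences shrank to −2.35 for Foxd2 and −1.16 for Foxd4. As run here, normexp also adds an offset of 50 to every signal. Such an offset by itself shrinks the differences of dim probes, so smaller values with normexp are no independent check of these genes.

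The neural crest genes listed with Foxd3 went both ways. Of 14 listed, 13 were measured, 4 with a positive and 9 with a negative difference, 1 higher and 4 lower by 2-fold or more, with a median of −0.22 (−0.59 to −0.14 over the alternative settings). The highest were Erbb3, a neuregulin receptor, with 1367 in KO-Linc1548 cells against 358 in WT cells (3.81-fold higher), and Msx2, a homeobox gene (0.43). The lowest were Sox9, with 75.4 in KO-Linc1548 cells against 658 in WT cells (8.73-fold lower), and Pax7, with 51.7 in KO-Linc1548 cells against 231 in WT cells (4.47-fold lower). The higher Foxd3 signal stood beside the higher stem cell and epiblast markers given above.

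A long non-coding RNA named Foxd2os, opposite in strand to Foxd2, was lower with its neighbour. Its probe lies at chr4:114593591-114593650 on the plus strand, and it had 44.6 in KO-Linc1548 cells against 199 in WT cells (4.47-fold lower). The next forkhead probe beyond Foxd2, 18.8 kb away, is that of Foxe3, a lens gene, which had 48.8 in KO-Linc1548 cells against 37.4 in WT cells (0.38). Of the 3 probes at this locus, 2 were thus lower by 2-fold or more and 1 was within 2-fold.

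**Figure D2:**
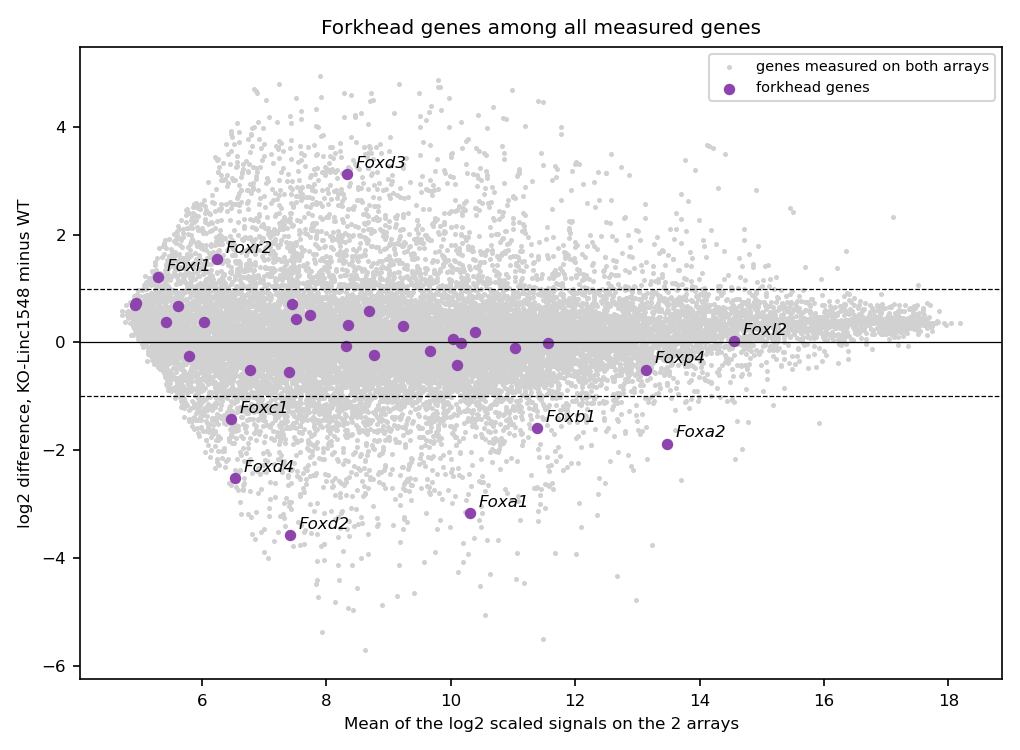
Log2 difference, KO-Linc1548 minus WT (vertical axis), against the mean of the log2 scaled signals on the 2 arrays (horizontal axis) for all 18671 genes measured on both (grey) and 34 forkhead genes measured on both (purple). Dashed lines mark the 2-fold limits, with 6 of the plotted forkhead genes below and 3 above. Foxa1, Foxa2 and Foxb1 are lower at moderate or high signal, whereas Foxc1, Foxd4, Foxi1 and Foxr2 lie at the dim end.

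Foxc1, Foxc2, Foxf1, Foxf2, Foxl1 and Foxq1 lie in clusters. On chromosome 13 the probes of Foxq1, Foxf2 and Foxc1 follow each other at 71.3 kb and 179 kb. Foxc1, active in paraxial mesoderm and vessels, had 54.2 in KO-Linc1548 cells against 145 in WT cells, which is 2.67-fold lower (−1.42 ± 0.27, chr13:31902423-31902482, plus strand). With normexp the difference of Foxc1 was −0.62, within 2-fold. Foxf2, of gut and craniofacial mesenchyme, was well above background in WT cells only, at 31.3 in KO-Linc1548 cells against 42.4 in WT cells. The plain ratio of the signals is 1.35-fold lower (−0.44 ± 0.41) and is not a lower bound. Foxq1, known from hair and stomach, had 254 in KO-Linc1548 cells against 179 in WT cells (0.51). The cluster thus held 1 gene past the limit and its far end differed the other way.

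On chromosome 8 the probes of Foxf1, Foxc2 and Foxl1 follow each other at 30.7 kb and 11.7 kb. Foxf1, a gene of lateral plate mesoderm, had 91.8 in KO-Linc1548 cells against 131 in WT cells (−0.51). Foxc2, which acts with Foxc1 in somites and vessels, was well above background in WT cells only (chr8:123642693-123642752, plus strand). It had 34.5 in KO-Linc1548 cells against 107.3 in WT cells, a plain ratio of 3.11-fold lower (−1.64 ± 0.36) and not a lower bound. Foxl1, a gene of gut mesenchyme, was well above background in KO-Linc1548 cells only, with 90.8 in KO-Linc1548 cells against 4.56 in WT cells, at least 4.26-fold higher (chr8:123654402-123654461, plus strand). The WT value of Foxl1 is a surrogate that the software put in place of a very dim reading, and the bound does not rest on it. Foxc2 and Foxl1 therefore differed in opposite directions. A bound sets the bright signal against the higher of the dim probe's own signal and the dimmest signal still called well above background on the same array (30.5 for KO-Linc1548 and 21.3 for WT). For Foxc2 and Foxf2 the probe's own signal was the higher, so only the plain ratio is given.

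**Figure D3:**
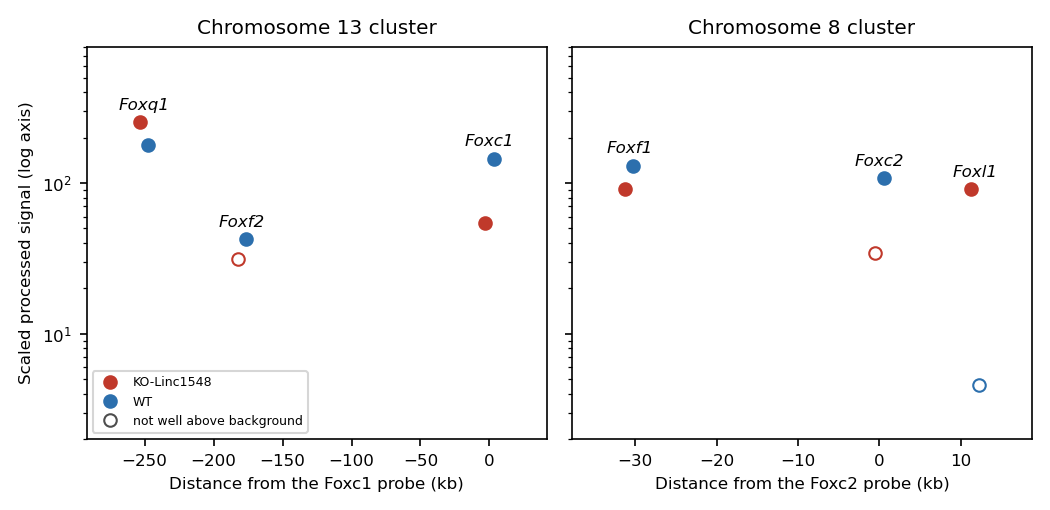
Scaled signals (vertical log axis, intensity units) of the forkhead probes of the chromosome 13 cluster (left) and the chromosome 8 cluster (right) by distance in kb from the Foxc1 or Foxc2 probe, with KO-Linc1548 in red and WT in blue drawn slightly apart. Open circles are probes not well above background. Foxc1 and Foxc2 are lower in KO-Linc1548 cells, and Foxl1, 11.7 kb from Foxc2, is higher.

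Of 19 mesoderm genes listed with FoxC and FoxF, 10 lay well above background in KO-Linc1548 cells and 14 in WT cells (59.6% and 61.5% of all gene names did). The 10 measured on both held 1 higher and 2 lower by 2-fold or more, with a median of −0.18 that ran from −0.56 to 0.08 over the alternative settings. Among the highest were the somite gene Tcf15, with 6286 in KO-Linc1548 cells against 548 in WT cells (11.5-fold higher), and Snai2 (0.24). Lowest were Twist1, with 39.8 in KO-Linc1548 cells against 117 in WT cells (2.95-fold lower), and Tbx1, with 114 in KO-Linc1548 cells against 298 in WT cells (2.62-fold lower). Of 8 fibroblast markers, all measured, 1 was higher and 1 lower by 2-fold or more, with summed signals of 5313 in KO-Linc1548 cells against 5828 in WT cells (without Dcn, 3650 in KO-Linc1548 cells against 3559 in WT cells). Of 8 endothelial and blood markers 7 were measured, 2 higher and 0 lower by 2-fold or more, with summed signals of 9256 in KO-Linc1548 cells against 6501 in WT cells. That sum rested on Ptprc, and without it the direction turned, with 3692 in KO-Linc1548 cells against 4269 in WT cells. Their part in the values of the FoxC, FoxF and FoxL genes was not tested. Foxs1, known from sensory neurons and vessel-associated cells, had 50.9 in KO-Linc1548 cells against 60.2 in WT cells (−0.24), and its difference was 0.06 with normexp.

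FoxI and FoxE genes, known from placodes, thyroid and lens, were dim. Foxi1, of inner ear and kidney, had 59.5 in KO-Linc1548 cells against 25.8 in WT cells, which is 2.31-fold higher (1.21 ± 0.38, chr11:34104352-34104411, minus strand). Its difference came to 0.83 with spike-in centring and 0.65 with normexp, both within 2-fold. Foxi3, of placodes and hair, had 39.3 in KO-Linc1548 cells against 23.8 in WT cells (0.72). Foxi2 and both probes of Foxe1, a thyroid gene, were not well above background on either array. Of 13 placode and surface ectoderm genes listed with them, 11 were measured, 2 higher and 3 lower by 2-fold or more, with a median of 0.38 (0.01 to 0.49 over the alternative settings). Highest were Tfap2c (7.08-fold), a gene of surface ectoderm, trophoblast and germ cells, and Six4 (2.33-fold). Lowest were Gata3, with 174 in KO-Linc1548 cells against 715 in WT cells (4.11-fold lower), and the keratin gene Krt8 (−1.32).

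The FoxR genes, of which Foxr2 is known as a proto-oncogene, were higher but dim. Foxr2 had 129 in KO-Linc1548 cells against 44.1 in WT cells, which is 2.93-fold higher (1.55 ± 0.26, chrX:149567248-149567307, plus strand). Foxr1 was well above background in KO-Linc1548 cells only, with 42.7 in KO-Linc1548 cells against 15.3 in WT cells, at least 2.01-fold higher. Both arrays read Foxr1 close to their detection limits.

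Direction at the dim end had a background of its own. Of the 29 forkhead genes with 1 measured probe, 7 had signals under 100 on both arrays, and 6 of these 7 differed in the positive direction. Over all 3351 measured probes with a geometric mean signal under 64, the median difference was 0.24, with 13.04% higher and 3.402% lower by 2-fold or more. Between 64 and 1000 the median was 0.03. For the 18194 probes below background on both arrays, those of intergenic RNA loci left out, it was 0.55. Such probes can hold surrogates, values the software puts in place of very dim readings. Foxb2 (0.57), Foxi2 (0.59) and Foxn1 (0.56) had surrogates on both arrays, so their differences compare substituted values. How many of the 18194 probes had surrogates was not counted. The part of the dim-end trend in those 6 genes (Foxa3, Foxe3, Foxi1, Foxi3, Foxo4 and Foxp3) was not tested. The limit of 100 on both arrays differs from that of 64 on the geometric mean, and by its geometric mean Foxa3 falls between 64 and 1000.

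Foxh1 stayed within 2-fold, while 9 of the measured genes of its pathway did not. Foxh1, the DNA-binding partner of Smad2 and Smad3 in Nodal signalling, had 1438 in KO-Linc1548 cells against 1257 in WT cells (0.19, and −0.18 with spike-in centring). Of 17 listed Nodal pathway genes, 16 were measured, 7 higher and 2 lower by 2-fold or more, with a median of 0.42 that ran from −0.004 to 0.85 over the alternative settings. The highest were the co-receptor gene Tdgf1, also one of the epiblast markers, and the antagonist Lefty2. Tdgf1 was 23.3-fold higher by the median over its 5 probes. Its brightest probe signals were 6895 in KO-Linc1548 cells against 1494 in WT cells, so not every probe differed that much. Lefty2 had 13379 in KO-Linc1548 cells against 606 in WT cells (22.1-fold higher). The lowest were Smad3 (3.37-fold) and the receptor gene Acvr2a (2.03-fold), by the median over their probes. Among these 4, a co-receptor and an antagonist were thus higher and a signal transducer and a receptor lower.

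FoxJ genes stayed within 2-fold. Foxj1, the master gene of motile cilia, had 365 in KO-Linc1548 cells against 290 in WT cells (0.33, and −0.05 with spike-in centring). Foxj2 had 506 in KO-Linc1548 cells against 337 in WT cells (0.58). The 2 probes of Foxj3 differed by 0.11 and 0.02, with signals of 225 and 5162 in KO-Linc1548 cells against 209 and 5089 in WT cells, and the gene's sign turned with median and spike-in centring. Of 23 motile cilium genes listed, 18 were measured, 8 higher and 3 lower by 2-fold or more, with a median of 0.65 (0.28 to 0.83 over the alternative settings). Highest were the radial spoke gene Rsph4a, with 245 in KO-Linc1548 cells against 40.2 in WT cells (6.10-fold higher), and the multiciliation gene Ccno, with 1355 in KO-Linc1548 cells against 268 in WT cells (5.05-fold higher). Lowest were Rsph9, also of the radial spoke (3.26-fold lower), and the tektin gene Tekt4, with 79.2 in KO-Linc1548 cells against 236 in WT cells (2.98-fold lower).

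FoxM1 and the mitotic genes it activates stayed within 2-fold. Of 3 Foxm1 probes, 2 were measured, with 244 and 5404 in KO-Linc1548 cells against 213 and 6246 in WT cells. Their differences of 0.20 and −0.21 have opposite signs and are each about the size of the spot error. All 22 listed targets of G2 phase and mitosis were measured and none was past 2-fold, while 20 differed in the positive direction and 2 in the negative. Their median was 0.41 and came to 0.03 with spike-in centring. Over all genes measured the median was itself positive, at 0.10, and came to −0.27 with spike-in centring. The highest were Ccnb1 (0.90) and Bub1, with 11169 in KO-Linc1548 cells against 6901 in WT cells (0.69), and the lowest were Cdc25b (−0.72) and Aurkb (−0.47).

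FoxO genes also stayed within 2-fold at the gene level. Foxo1 was bright on both of its probes, with 1986 and 2024 in KO-Linc1548 cells against 2165 and 2168 in WT cells (−0.12 and −0.10). Foxo6, the brain-enriched member, had 313 in KO-Linc1548 cells against 328 in WT cells (−0.07). Foxo4 had 62.0 in KO-Linc1548 cells against 38.7 in WT cells on its measured probe (0.68), and its other probe was not well above background on either array. FoxO proteins are controlled mostly by phosphorylation, which RNA does not show.

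Of 16 PI3K-AKT pathway genes, all were measured, 2 at least 2-fold higher and 0 lower, with a median of 0.11 (−0.27 with spike-in centring). Highest were Sgk1, a kinase that phosphorylates FoxO proteins, with 15839 in KO-Linc1548 cells against 1760 in WT cells (3.17 on the log2 scale), and Pik3cb (2.07-fold). Among the lowest was Akt1 (−0.88). Of 20 listed FoxO target genes, 19 were measured, 5 at least 2-fold higher and 0 lower, with a median of −0.02 (−0.40 to 0.05 over the alternative settings). Klf2, with 10164 in KO-Linc1548 cells against 1092 in WT cells (9.31-fold higher), and Pdk4, with 429 in KO-Linc1548 cells against 53.5 in WT cells (8.03-fold higher), were the highest, and Klf2 is also a gene of naive stem cells. Cited2, with 3202 in KO-Linc1548 cells against 6046 in WT cells (−0.92), and Irs2, with 3620 in KO-Linc1548 cells against 6337 in WT cells (−0.81), were the lowest.

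**Figure D4:**
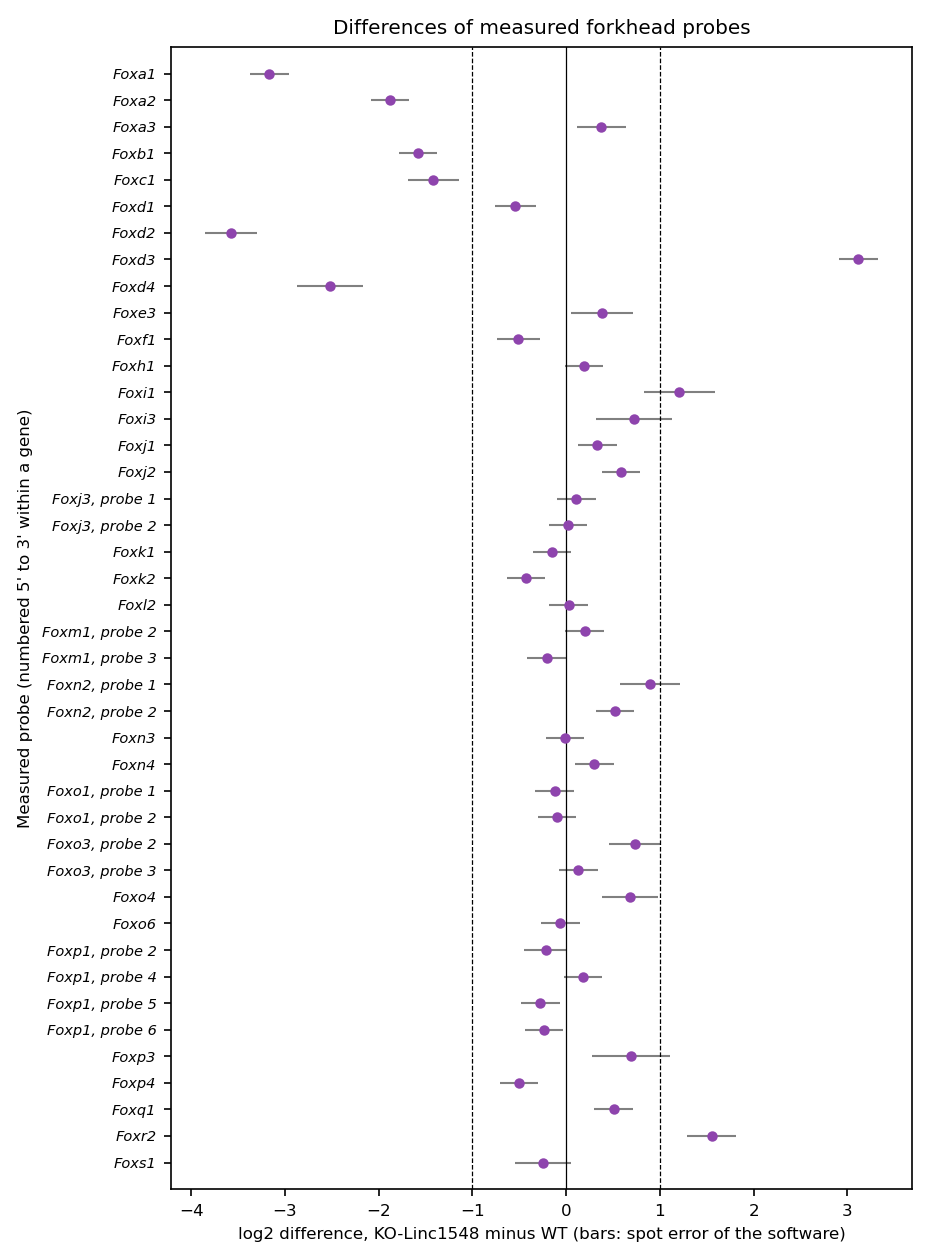
Log2 difference, KO-Linc1548 minus WT (horizontal axis), of 42 forkhead probes measured on both arrays, with bars for the spot error of the software, which holds no replicate spread. Dashed lines mark the 2-fold limits. Probes of Foxj3, Foxo1 and Foxp1 lie together near 0, and Foxi1 and Foxi3 have wide bars.

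Foxo3 was the gene whose probes disagreed most. In order from 5′ to 3′, its first probe had 72.2 in KO-Linc1548 cells against 10.2 in WT cells and was well above background in KO-Linc1548 cells only, at least 3.39-fold higher. The middle probe had 78.8 in KO-Linc1548 cells against 47.5 in WT cells (0.73), and the 3′-most probe had 574 in KO-Linc1548 cells against 524 in WT cells (0.13). The difference was thus smaller toward the 3′ end. Over 3474 transcripts with measured probes at least 500 bases apart, the difference at the 3′ probe minus that at the 5′ probe had a median of −0.17, and the part of that trend in Foxo3 was not tested. The first and the middle probe are shown because they differ in base composition, with the longest run of G and C in capitals. Bases G and C make up 70% of the first and 45% of the middle probe.
Foxo3 first probe, chr10:41994961-41995020, minus strand: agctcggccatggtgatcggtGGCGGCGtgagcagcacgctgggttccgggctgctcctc
Foxo3 middle probe, chr10:41916349-41916408, minus strand: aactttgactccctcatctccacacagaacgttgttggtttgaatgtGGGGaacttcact

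Foxp1, a partner of Foxp2 and Foxp4 in developing neurons, had 6 probes, 4 of them measured. Those 4 differed by −0.22, 0.18, −0.28 and −0.24 in order from 5′ to 3′, all close to the spot error. The 5′-most probe was well above background in WT cells only, with 6.53 in KO-Linc1548 cells against 32.2 in WT cells, at least 1.06-fold lower. Its KO-Linc1548 value is a surrogate put in by the software, on which the bound does not rest. Foxp4 was bright, with 7609 in KO-Linc1548 cells against 10794 in WT cells (−0.50). Foxp2, known from motor circuits and speech, was well above background in WT cells only on 1 of its 2 probes, with 12.7 in KO-Linc1548 cells against 52.3 in WT cells, at least 1.72-fold lower.

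Foxp3, the master gene of regulatory T cells, had 38.7 in KO-Linc1548 cells against 24.0 in WT cells (0.69). Of 6 lymphocyte markers 5 were measured, with 1 higher and 0 lower by 2-fold or more, and Cd8a was not well above background on either array. Their brightest probes summed to 6387 in KO-Linc1548 cells against 2866 in WT cells, and without Ptprc, which the blood markers also hold, to 823 in KO-Linc1548 cells against 634 in WT cells. The part of these markers in the Foxp3 signal was not tested.

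**Figure D5:**
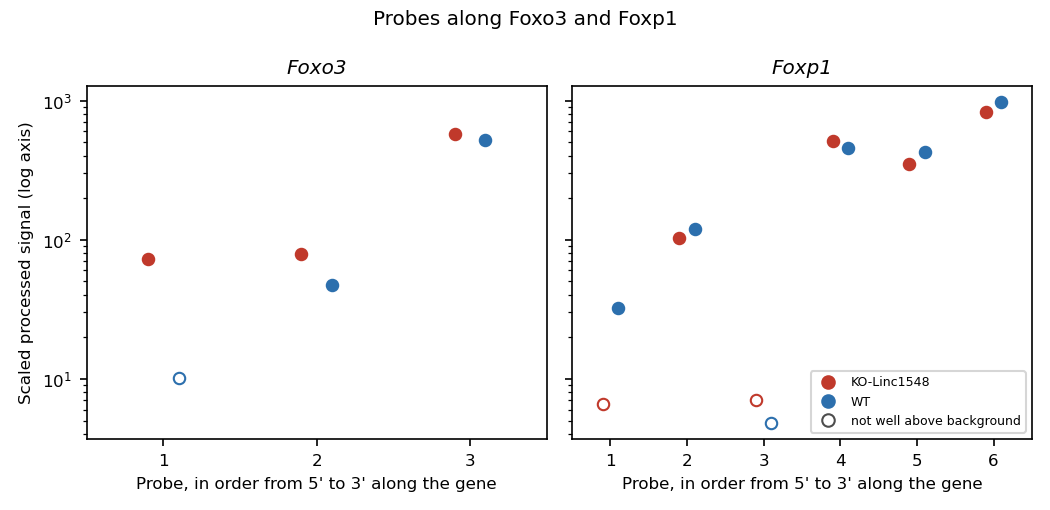
Scaled signals (vertical log axis, intensity units) of the probes of Foxo3 (left) and Foxp1 (right), numbered from 5′ to 3′ along the gene, with KO-Linc1548 in red and WT in blue drawn slightly apart. Open circles are probes not well above background. The first Foxo3 probe is well above background in KO-Linc1548 cells only and the first Foxp1 probe in WT cells only, while the arrays nearly coincide at the 3′-most probes.

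The broadly expressed FoxK and FoxN genes stayed within 2-fold. Foxk1 and Foxk2, repressors that act in metabolism and autophagy, had 770 and 946 in KO-Linc1548 cells against 856 and 1270 in WT cells (−0.15 and −0.43). The probes of Foxn2 had 61.0 and 813 in KO-Linc1548 cells against 32.8 and 566 in WT cells (0.89 and 0.52). Foxn3, a checkpoint repressor, had 3026 in KO-Linc1548 cells against 3053 in WT cells (−0.01) on 1 probe, and its other 3 probes were not well above background on either array. Foxn4, of retinal and spinal interneurons, had 669 in KO-Linc1548 cells against 543 in WT cells (0.30, and −0.08 with spike-in centring). Foxn1, the thymus and hair gene, was not well above background on either array.

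Foxl2, the ovarian granulosa cell gene, gave a very bright signal in both cultures, 24338 in KO-Linc1548 cells against 23913 in WT cells (0.03). Its sign turned with 5 alternative settings, down to −0.35 with spike-in centring. The probe is 81.7% G and C, where the median over all probes is 41.7%, and the 60-base probe maps to 57 bases of mm9. Of 72 probes with at least 75% G and C, 9 (12.5%) exceeded 10000 on both arrays, against 5.18% of all probes. The median signal of those 72 was 119 in KO-Linc1548 cells and 99.9 in WT cells, and the part of base composition in the Foxl2 signal was not tested. The probe named Foxl2os, opposite in strand and at chr9:98849845-98849904, was well above background in WT cells only, with 17.6 in KO-Linc1548 cells against 108 in WT cells, at least 3.55-fold lower. The Foxl2 probe is shown with that of Foxq1, the other forkhead probe above 75% G and C, and with the longest run of G and C in capitals.
Foxl2, chr9:98856894-98856950, plus strand: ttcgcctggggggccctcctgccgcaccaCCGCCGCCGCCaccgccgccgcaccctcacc
Foxq1, chr13:31651865-31651924, plus strand: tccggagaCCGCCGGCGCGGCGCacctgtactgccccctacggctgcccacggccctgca

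Promoter sequence was searched for 28 of the 44 genes that the RefSeq promoter table holds, in 33 windows of 250 bases before a transcription start (GRCm38.p6), on both strands. The forkhead motif TGTTTAC was in 1 window (3.03%), against 3.17% of 32851 windows of all genes. Its variant TGTTTGC was in 2 (6.06% against 4.30%), the octamer ATGCAAAT in 0 (against 1.60%), and the SOX motif CTTTGTT in 4 (12.1% against 5.03%). The 1 TGTTTAC match was before Foxa1, at position −141 from the start, and it overlapped a CTTTGTT match at −138. The other matches lay before Foxj3, Foxp1 and Foxp3, none of them past the 2-fold limit. These letters say nothing of whether a factor binds there.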

How the data were processed

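RNA of 1 KO-Linc1548 and 1 WT culture was hybridised to one-colour Agilent arrays, with groups as the labels' genotype gives them. Per the file headers, Agilent Feature Extraction 10.7.1.1 produced the deposited spot intensity values: background-subtracted, detrended within each array, very dim signals replaced by a surrogate, and not normalized between arrays, with probes on mm9. Here outlier spots were left out (155 on the KO-Linc1548 array and 173 on the WT array), log2 signals of a probe's spots were averaged, each array was centred on the 75th percentile of its non-control probes, and a gene took the median of its measured probes. Well above background followed the software's call in at least 0.5 of a probe's spots. Probes in several spots had a pooled SD of 0.07 (KO-Linc1548) and 0.06 (WT) on the log2 scale (298 probes each). No probe was saturated (0 and 0). With 1 array per group no test was made, and the number of arrays limits the precision. Forkhead genes and the 10 gene lists, besides the cell type markers, were chosen with earlier results of these data known. Forkhead genes are reported by this rule, and of each list the 2 highest and 2 lowest measured genes, and a few of these genes are not reported here although the counts hold them. The 11 alternatives covered scaling, background, detection, outliers and probe summary (Python 3.11.15, limma 3.58.1 in R 4.3.3). The calculation was tested on simulated data. Motifs and probe windows come from the files and RefSeq tables, and exon or UTR annotation on mm9 was not used here.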

Additional observations from a re-analysis of the deposited data

How the results depend on the processing

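No paired analysis was possible because each group has 1 array. With median centring, quantile normalization, loess, outlier spots kept, the brightest probe or the mean over probes, 7 forkhead genes were at least 2-fold lower in KO-Linc1548 cells and 3 higher, the same 10 genes as in the report. Spike-in centring gave 7 lower and 2 higher, with Foxi1 within 2-fold, and moved the median of the forkhead genes to −0.38, as it moved the median of all genes by −0.38. It changed the split over all genes from 11.5% higher and 8.81% lower to 7.53% higher and 15.6% lower. Median centring moved the median of all genes by −0.11. Normexp gave 6 lower and 2 higher, with Foxc1 and Foxi1 within 2-fold. Its added offset of 50 by itself shrinks differences at signals as dim as those of Foxc1 and Foxi1. Without the filter on dim probes 8 of 44 were lower and 6 higher, adding Foxc2, Foxe1, Foxl1 and Foxr1, and the median of all genes moved by 0.29. With a scaled signal of at least 100 on both arrays only 23 forkhead genes were measured, 4 lower and 1 higher, since Foxc1, Foxd2, Foxd4, Foxi1 and Foxr2 were no longer measured. With the software's weaker detection call 41 forkhead genes were detected in KO-Linc1548 cells and 40 in WT cells, and of 40 on both, 9 were lower and 5 higher, adding Foxc2, Foxe1, Foxp2 and Foxr1. None of the 10 genes changed sign under any alternative that gave it a value. Scaling and the dim filters do not enter the count of genes well above background, so they gave no other count there. Signal near background limits Foxc1, Foxd2, Foxd4, Foxi1, Foxr2 and every gene seen on 1 array.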
